A study of Mus musculus with 34 samples.

Results

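The genes described here are the protein-coding genes whose symbol is Gpr followed by a number, with or without 1 final letter, with Gpr17 left out. The letters stand for G protein-coupled receptor, and such numbered names were given to receptors found by sequence before a ligand was known. In the GENCODE M21 mouse annotation 71 genes fit this rule, and 57 of them are among the 18548 genes of the deposited table. The 14 others were not analysed here. The word orphan does not hold for every member. Ligands have been reported for several, among them Gpr34, Gpr35, Gpr39, Gpr55, Gpr84 and Gpr183, and Gpr89 is an ion channel of the Golgi membrane rather than a receptor.

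As background, a G protein-coupled receptor spans the membrane with a bundle of helices and, when active, loads GTP onto the alpha subunit of a G protein, which then raises or lowers cyclic AMP or releases calcium. Kinases and arrestins switch the receptor off, and RGS proteins speed the return of the G protein to rest. Several orphan receptors signal without a ligand, and some, such as Gpr6, are known as products of striatal projection neurons.

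RNA was sequenced from 3 brain regions of male C57BL/6J mice at postnatal day 56: striatum, hippocampus and prefrontal cortex (PFC). Mice heterozygous for a mutation of Myt1l, a zinc finger transcription factor of neurons, are called HT here, and wild-type mice WT. There were 6 HT and 6 WT libraries of striatum, 5 HT and 6 WT of hippocampus, and 5 HT and 6 WT of PFC. The labels give no treatment and do not describe the mutated allele. They do not say that libraries are from separate animals, so p-values measure the spread between these libraries, which may be technical. Values are the authors' normalized counts per gene. Library totals were 25786041 to 29798959, and the reads behind them are not given. Tests are of limma on log2(value + 1), adjusted over every tested gene by Benjamini-Hochberg, and a gene is called at an adjusted p under 0.05. A log2 difference is on that scale and understates the change of low genes.

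Myt1l itself was not lower in HT libraries. It was at 8162 ± 954 normalized counts in HT and 7675 ± 552 in WT striatum (SD, n = 6 each). In hippocampus it was at 6896 ± 385 in HT (SD, n = 5) and 6216 ± 594 in WT (SD, n = 6), and in PFC at 6820.3 ± 456 in HT (SD, n = 5) and 6650.2 ± 842 in WT (SD, n = 6). By summed level the region marker lists followed the labels, but single genes did not all do so. The cortical list summed to 51030 to 54557 in WT PFC and 39210 to 41244 in WT hippocampus. Of its genes, Neurod6 and Fezf2 were on average higher in WT hippocampus than in WT PFC. The hippocampal list summed to 29285 to 32641 in WT hippocampus and 11427 to 15218 in WT striatum. Its gene Wfs1 was on average higher in WT striatum than in WT hippocampus. The summed level of 8 striatal projection neuron markers, such as Drd1 and Penk, was 54422 to 81347 in HT and 63825 to 81029.5 in WT striatum, and at most 10512 in any other library. Markers of neighbouring tissue varied between libraries of 1 region. The 7 cortical projection neuron markers summed to 2312 to 11757 in HT and 2401 to 12746 in WT striatum, and 6 choroid plexus and ependymal markers to 2569.9 to 84297 in HT and 2182 to 64432 in WT hippocampus. In tissue RNA, fewer cells of a type and less RNA per cell cannot be told apart. Column names carry a code, and every code recurs over regions. The code 31-67M stands on WT PFC replicate 6 as well as on replicate 1 of HT hippocampus and HT striatum. The labels were followed. Without the libraries coded 31, as with them, no member was called for genotype in any region.

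Per kilobase of exon, which allows a comparison between genes, the members spanned a wide range of levels. In striatum the median member was at 75.6 normalized counts per kilobase in HT and 77.5 in WT libraries. In hippocampus Gpr162 led, at 974.6 per kilobase in HT and 986 in WT, and Gpr22 came next, at 619 in HT and 612 in WT. PFC was led by Gpr162 too, at 1216 per kilobase in HT and 1201 in WT. It was followed there by Gpr26, at 822 in HT and 796 in WT, and Gpr158, at 614 in HT and 606 in WT. Gpr20, Gpr55 and Gpr65 stayed under a mean of 10 normalized counts in every group and were not tested. Their means were 2.24 to 7.43. Gpr35, a receptor best known from gut and immune cells, was at 12.5 ± 5.17 in HT and 11.5 ± 2.48 in WT striatum (SD, n = 6 each) and lower elsewhere. The other 53 members were tested between regions.

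**Figure D1:**
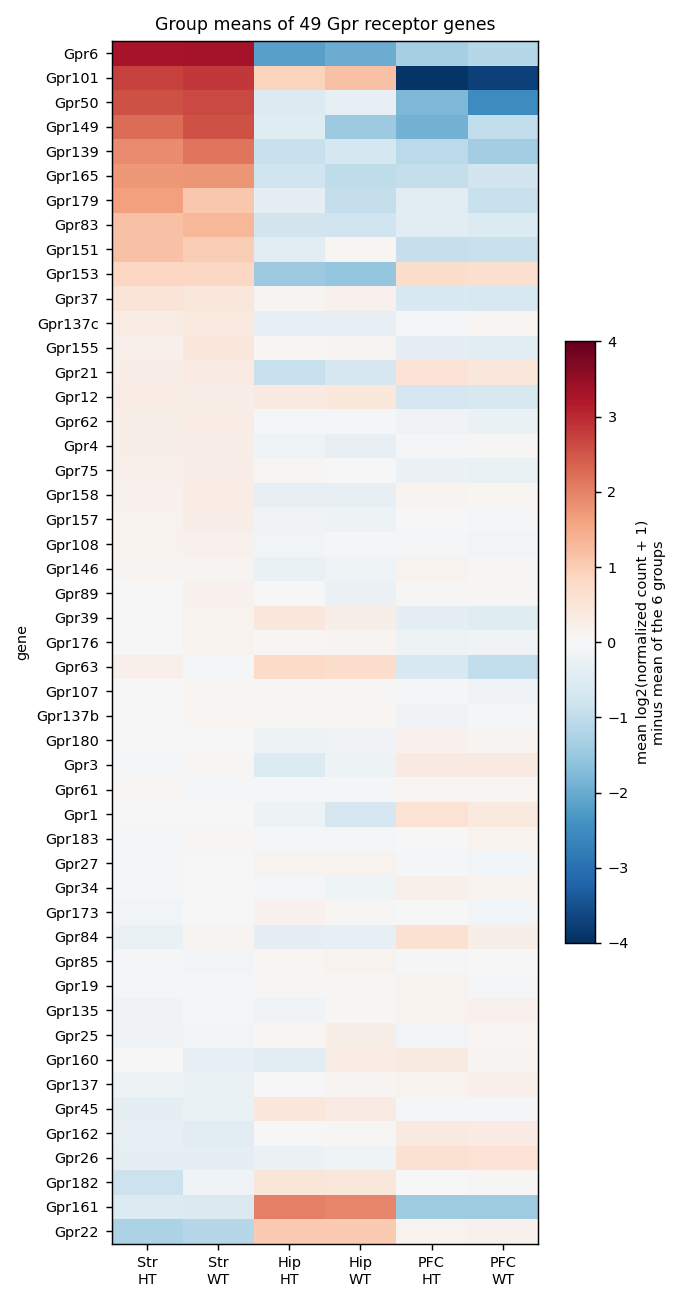
Mean log2(normalized count + 1) of 49 members tested between regions, in the 6 groups (columns, HT left of WT; Str is striatum, Hip hippocampus), after subtracting the member's mean over the groups. Rows run from the largest to the smallest excess in striatum; red marks a level above the member's own mean and blue one below it, and Gpr6 and Gpr101 show the largest contrasts of those plotted.

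Between regions, some receptors stood apart in 1 region from both others. The share of all genes that did so was not counted, so the regions are not ranked by it. In WT libraries, those higher in striatum than in both other regions by a log2 difference of at least 1 included Gpr6, Gpr50, Gpr83, Gpr101, Gpr139, Gpr149, Gpr165 and Gpr179. By the same size Gpr161 was highest in hippocampus, Gpr22 lowest in striatum and Gpr153 lowest in hippocampus, and Gpr50 and Gpr101 were lowest in PFC.

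By count, 31 of 53 members were called between striatum and PFC in WT libraries (58.5%, against 56.6% of all genes tested), 23 higher and 8 lower in striatum (29% and 27.7% of all genes). Between striatum and hippocampus 35 were called (66%, against 47.5% of all genes), 24 higher and 11 lower in striatum (23.9% and 23.6% of all genes). Between hippocampus and PFC 33 were called (62.3%, against 46.3%), 16 higher and 17 lower in hippocampus (23.6% and 22.7% of all genes). The share of members called between striatum and PFC was near that of all genes. With a log2 difference of at least 1 in size as well, 14 members were called between striatum and PFC (26.4%, against 13.4% of all genes), 13 between striatum and hippocampus (24.5%, against 10.8%) and 10 between hippocampus and PFC (18.9%, against 9.11%). The median size of a log2 difference was 0.36 for members and 0.28 for all genes between striatum and PFC. It was 0.38 for members and 0.23 for all genes between striatum and hippocampus, and 0.40 for members and 0.22 for all genes between hippocampus and PFC.

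HT libraries, which share no library with WT, gave 32 called members between striatum and PFC (background 54.9% of all genes), 31 between striatum and hippocampus (45.3%) and 30 between hippocampus and PFC (42.6%). Of the members called in WT with a log2 difference of at least 1, HT libraries called 14 of 14 for striatum against PFC, 13 of 13 for striatum against hippocampus and 8 of 10 for hippocampus against PFC, by the same rule and in the same direction. The 2 others were Gpr50, not called in HT, and Gpr1, called with a log2 difference of -0.76, a call lost with equal totals (-0.67, limma adjusted p = 0.0841). It was also lost on leaving out any of HT PFC replicates 1 to 4, HT hippocampus replicates 1 to 4 or HT striatum replicates 5 and 6 (adjusted p up to 0.109). The share of all genes called by that rule in HT was 13.9% for striatum against PFC, 10.6% for striatum against hippocampus and 9.49% for hippocampus against PFC. The direction of these counts depends on scaling. After scaling libraries to equal totals the median of all genes moved by over 0.1 for striatum against PFC, to 0.16 in HT and 0.15 in WT libraries. The called members were then 25 higher and 7 lower in HT striatum than PFC, where the deposited scaling gave 20 and 12 (28.1% and 26.9% of all genes). In WT they were 30 higher and 6 lower, where it gave 23 and 8. Of all genes called with equal totals, 69.9% in HT and 69.8% in WT were higher in striatum. For hippocampus against PFC equal totals gave 17 higher and 11 lower members in HT, against 13 and 17 as deposited (21.9% and 20.7% of all genes), and 22 higher and 14 lower in WT, against 16 and 17. Of all genes called with equal totals, 67.6% in HT and 66.7% in WT were higher in hippocampus. The genes of a log2 difference over 1 described next kept their direction.

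Gpr6, Gpr3 and Gpr12 form a family of receptors that raise cyclic AMP without a ligand, and they were placed differently in the 3 regions. Gpr6 is known as a product of the projection neurons of the indirect striatal pathway (ENSMUSG00000046922, GRCm38 chr10:41069977-41072285, minus strand). In HT libraries, Gpr6 was at 627 to 1082 (median 760.3) in striatum, at 19.3, 33.9, 9.32, 13.1 and 16.0 in hippocampus and at 63.8, 29.9, 38.0, 29.3 and 13.7 in PFC. In WT libraries, Gpr6 was at 739 to 919 (median 798) in striatum, 9.81 to 30.2 (median 19.0) in hippocampus and 20.04 to 79.1 (median 33.8) in PFC. Every striatal library lay above every other one, and hippocampus and PFC overlapped. On the log2 scale it differed by 4.49 (SE 0.26, adjusted p = 3.46e-12) against PFC and 5.31 (SE 0.26, adjusted p = 2.24e-13) against hippocampus in WT (limma). Gpr12, in contrast, was lowest in PFC, at 427 to 509 in striatum, 438 to 573 in hippocampus and 204 to 278 in PFC in HT libraries. In WT it was at 398 to 573 in striatum, 447 to 583 in hippocampus and 218 to 276 in PFC. The log2 difference of Gpr12 was 0.93 (SE 0.09, adjusted p = 7.91e-09) for striatum against PFC and 1.06 (SE 0.09, adjusted p = 1.64e-09) for hippocampus against PFC, while striatum and hippocampus were not told apart (-0.13 (SE 0.09, adjusted p = 0.236), limma). Gpr3, known for holding oocytes in meiotic arrest, was highest in PFC, with 117 to 222 in striatum, 91.9 to 140.3 in hippocampus and 165 to 281 in PFC in HT libraries and 145 to 223 in striatum, 128 to 198 in hippocampus and 203 to 282 in PFC in WT. Its WT differences were -0.32 (SE 0.13, adjusted p = 0.0319) for striatum against PFC and -0.57 (SE 0.13, adjusted p = 0.000709) for hippocampus against PFC (limma). The first of these was not called with equal totals (-0.18, adjusted p = 0.232), without the libraries coded 31 (adjusted p = 0.1004) or on leaving out WT PFC replicate 2 or 6 or WT striatum replicate 4 or 5 (adjusted p up to 0.0887, limma).

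Of the 41 members with an entry in RefSeq's promoter table for GRCm38.p6, Gpr6 was the only one whose 250 bases before a start site held TGACGTCA, the full cyclic AMP response element, which 1.55% of the 32851 promoters of that length hold. Motifs were searched on both strands, and the element reads the same on each. The others searched were GGGCGG (32.7% of promoters, 21 of 41 members), CCAAT (33.8%, 21 of 41), TATAAA (12.4%, 5 of 41) and AAGTTT, the core of the motif that MYT family proteins bind (12.8%, 4 of 41). A member counts where any of its start sites holds the motif, and the 41 members have 56 entries. The percentages are per entry, so the 2 measures are unlike and are not compared. No match overlapped another in the promoters shown. A match describes these letters and shows no binding. Capitals mark the matches in the promoters below, given 5′ to 3′ on the gene's strand. They belong to Gpr6 (chr10:41072291-41072540, minus strand), with the response element, to Gpr101 (chrX:57503758-57504007, minus strand) and Gpr165 (chrX:96713218-96713467, plus strand), which were also highest in striatum, and to Gpr161 (chr1:165295516-165295765, plus strand, 1 of 2 start sites), which was highest in hippocampus. CCAAT or its reverse stood in Gpr6, Gpr165 and Gpr161, GGGCGG or its reverse in Gpr101 and Gpr165, and TATAAA in Gpr165. AAGTTT stood in none of the promoters shown, but its reverse stood in the other start site of Gpr161. The members with AAGTTT or its reverse were Gpr22, Gpr146, Gpr161 and Gpr183.
Gpr6: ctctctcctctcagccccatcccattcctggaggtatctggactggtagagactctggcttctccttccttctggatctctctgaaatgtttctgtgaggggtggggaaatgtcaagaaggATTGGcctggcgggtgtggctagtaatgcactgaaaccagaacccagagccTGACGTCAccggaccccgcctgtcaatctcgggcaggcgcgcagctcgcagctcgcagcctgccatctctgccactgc
Gpr101: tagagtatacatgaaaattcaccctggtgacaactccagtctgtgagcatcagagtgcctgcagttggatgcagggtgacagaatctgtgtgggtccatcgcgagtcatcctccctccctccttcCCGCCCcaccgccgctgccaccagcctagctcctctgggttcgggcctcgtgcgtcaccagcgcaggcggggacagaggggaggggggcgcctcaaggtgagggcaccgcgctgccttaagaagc
Gpr165: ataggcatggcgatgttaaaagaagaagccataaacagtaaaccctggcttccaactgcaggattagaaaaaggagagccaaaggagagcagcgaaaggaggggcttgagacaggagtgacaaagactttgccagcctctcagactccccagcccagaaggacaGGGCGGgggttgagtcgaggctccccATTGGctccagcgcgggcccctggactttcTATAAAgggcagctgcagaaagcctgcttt
Gpr161: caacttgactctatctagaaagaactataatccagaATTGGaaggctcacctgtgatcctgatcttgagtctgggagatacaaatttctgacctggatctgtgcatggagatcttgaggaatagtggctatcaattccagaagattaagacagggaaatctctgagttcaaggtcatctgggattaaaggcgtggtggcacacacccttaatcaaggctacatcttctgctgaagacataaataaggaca

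Gpr101, an X-linked receptor that raises cyclic AMP without a ligand and whose extra copies cause gigantism in humans, was graded over the 3 regions (ENSMUSG00000036357, GRCm38 chrX:57496668-57503757, minus strand). In HT libraries, Gpr101 was at 726 to 1266 (median 1066) in striatum, at 265, 321, 287, 170.0 and 439 in hippocampus and at 7.48, 8.46, 10.9, 4.90 and 18.2 in PFC. In WT libraries, Gpr101 was at 831 to 1362 (median 1043) in striatum, 234 to 446 (median 357) in hippocampus and 4.05 to 24.2 (median 11.7) in PFC. The regions did not overlap in either genotype, with PFC lowest. The log2 difference of Gpr101 was 6.55 (SE 0.27, adjusted p = 1.22e-13) against PFC and 1.65 (SE 0.27, adjusted p = 4.53e-05) against hippocampus in WT, and it was 4.90 (SE 0.27, adjusted p = 1.52e-11) for hippocampus against PFC (limma). Gpr83, for which the peptide PEN has been reported as a ligand, was high in all regions and highest in striatum (ENSMUSG00000031932, GRCm38 chr9:14860210-14870789, plus strand). In HT libraries, Gpr83 was at 1470.5 to 2135 (median 1689) in striatum, at 428, 587, 411, 417 and 496 in hippocampus and at 538, 593, 569.6, 606 and 579.9 in PFC. In WT libraries, Gpr83 was at 1663 to 2120.3 (median 1912) in striatum, 409.7 to 453 (median 447) in hippocampus and 483 to 589 (median 517) in PFC. Striatum did not overlap the other regions. By log2 difference Gpr83 was at 1.87 (SE 0.06, adjusted p = 1.53e-16) against PFC and 2.12 (SE 0.06, adjusted p = 1.08e-17) against hippocampus in WT (limma).

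Gpr139 and Gpr149 were striatal receptors of lower level. Gpr139 couples to the G protein that releases calcium and responds to aromatic amino acids. In HT libraries, Gpr139 was at 183 to 304 (median 243) in striatum, at 45.1, 28.5, 32.2, 36.8 and 30.7 in hippocampus and at 28.4, 30.2, 35.6, 29.3 and 26.5 in PFC. In WT libraries, Gpr139 was at 217 to 360.3 (median 285) in striatum, 28.2 to 47.4 (median 41.1) in hippocampus and 11.1 to 47.6 (median 24.1) in PFC. Striatal libraries lay apart from all others, and the other regions overlapped. Its log2 difference was 3.55 (SE 0.23, adjusted p = 1.37e-11) against PFC and 2.84 (SE 0.23, adjusted p = 6.46e-10) against hippocampus in WT (limma). Gpr149 has no agreed ligand and has been studied in mouse oocytes. In HT libraries, Gpr149 was at 185 to 291 (median 234) in striatum, at 61.4, 30.9, 13.6, 40.7 and 45.2 in hippocampus and at 16.2, 12.0, 9.02, 9.99 and 15.6 in PFC. In WT libraries, Gpr149 was at 242 to 361 (median 285) in striatum, 12.1 to 31.7 (median 16.7) in hippocampus and 14.8 to 71.1 (median 20.6) in PFC. Again striatum stood apart, and a single PFC library of WT stood above the rest of its group. On the log2 scale it differed by 3.54 (SE 0.29, adjusted p = 6.36e-10) against PFC and 4.00 (SE 0.29, adjusted p = 1.01e-10) against hippocampus in WT (limma). Between hippocampus and PFC the genotypes differed in call: it was 1.42 (SE 0.29, adjusted p = 0.000607) in HT and -0.46 (SE 0.29, adjusted p = 0.204) in WT, and the test of that difference stands with the genotype results.

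Gpr165, an X-linked receptor of unknown function, was highest in striatum as well. In HT libraries, Gpr165 was at 562 to 1011 (median 906) in striatum, at 108.3, 192, 107, 173.4 and 189 in hippocampus and at 129, 128, 148, 129 and 142 in PFC. In WT libraries, Gpr165 was at 612 to 1165 (median 909) in striatum, 108.2 to 143 (median 131) in hippocampus and 121 to 172 (median 164) in PFC. No striatal library overlapped another region. The log2 difference of Gpr165 was 2.51 (SE 0.13, adjusted p = 2.89e-13) against PFC and 2.78 (SE 0.13, adjusted p = 4.21e-14) against hippocampus in WT (limma). Gpr179, a class C receptor known for holding RGS proteins in retinal bipolar cells, was low everywhere. In HT libraries, Gpr179 was at 23.7 to 117 (median 61.5) in striatum, at 4.16, 20.4, 10.3, 24.9 and 14.4 in hippocampus and at 13.6, 20.9, 10.3, 6.90 and 13.9 in PFC. In WT libraries, Gpr179 was at 23.6 to 68.0 (median 32.3) in striatum, 2.91 to 17.4 (median 9.68) in hippocampus and 4.64 to 20.7 (median 8.77) in PFC. Striatum did not overlap the other regions in WT, but its lowest HT library lay below the highest hippocampal one. By log2 difference Gpr179 was at 1.95 (SE 0.39, adjusted p = 0.000167) against PFC and 2.02 (SE 0.39, adjusted p = 0.000155) against hippocampus in WT (limma).

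Gpr50, a relative of the melatonin receptors that does not bind melatonin, was at 32.6 to 71.7 in HT and 27.5 to 90.7 in WT striatum. In hippocampus it was at 3.64, 25.3, 1.43, 1.28 and 14.0 in HT libraries and 3.01 to 27.6 (median 5.22) in WT. In PFC the HT libraries were at 4.99, 0, 11.7, 0.864 and 0 and the WT libraries at 0, 1.36, 0, 3.49, 0 and 0.695, so 5 PFC libraries were listed at 0. Every HT striatal library exceeded the other HT libraries, while the lowest WT striatal library lay just under the highest WT hippocampal one. Against PFC in WT the log2 difference of Gpr50 was 5.15 (SE 0.46, adjusted p = 2.69e-09) by limma. That size follows the constant added before the logarithm, and was 5.81 with 0.5 added and 3.41 with 5. Against hippocampus it was 2.97 (SE 0.46, adjusted p = 1.27e-05).

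**Figure D2:**
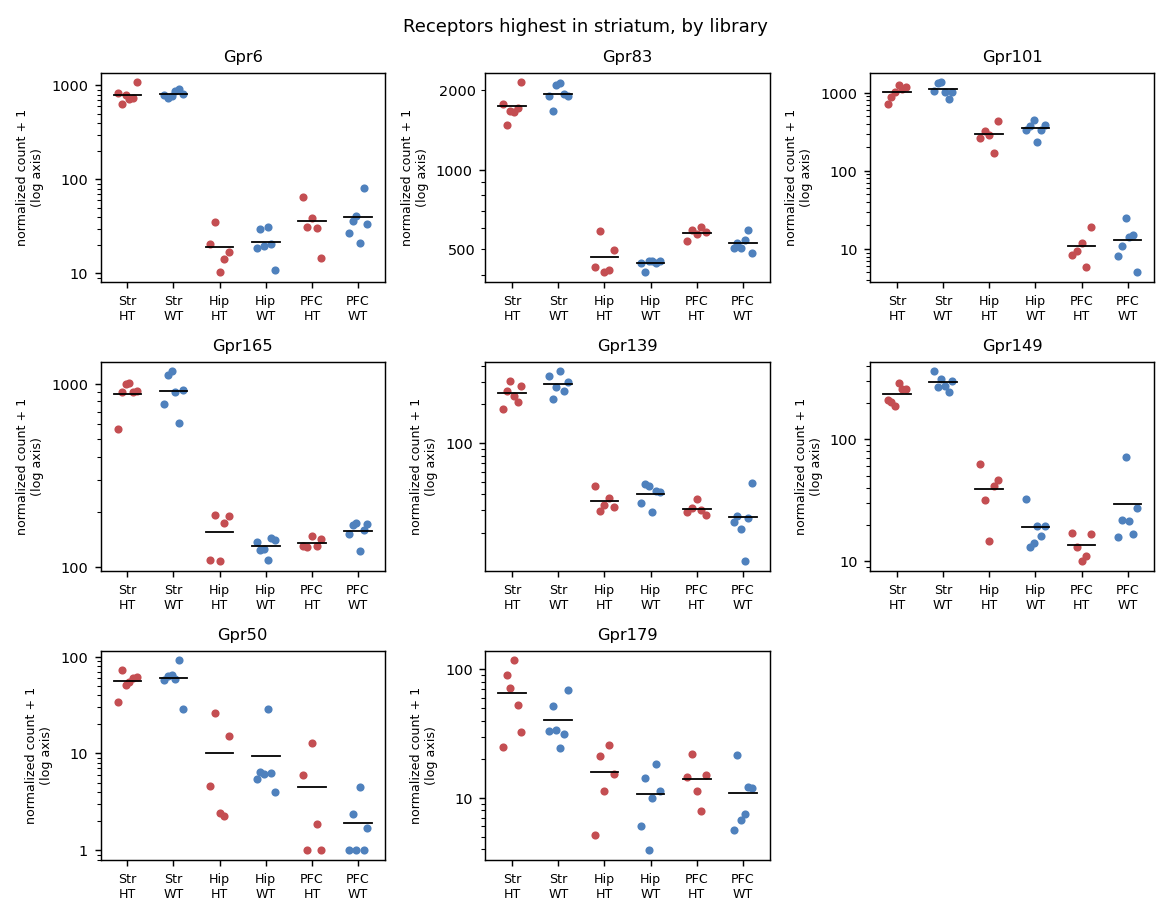
Normalized count + 1 on a log axis for 8 members highest in striatum, 1 point per library (HT red, WT blue), with a line at the mean of each group of 5 or 6. The striatal points of Gpr6, Gpr83, Gpr101, Gpr165, Gpr139 and Gpr149 lie above every point of hippocampus and PFC, while those of Gpr50 and Gpr179 come close to or meet single points of the other regions.

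Gpr161 was the receptor of hippocampus. It sits in the primary cilium and, through cyclic AMP, restrains Sonic hedgehog signalling (ENSMUSG00000040836, GRCm38 chr1:165295789-165326745, plus strand). In HT libraries, Gpr161 was at 326 to 433 (median 425) in striatum, at 2776, 2086, 2716, 2782 and 2043 in hippocampus and at 233, 218, 202, 219 and 254 in PFC. In WT libraries, Gpr161 was at 364 to 430.5 (median 406) in striatum, 2111 to 2695 (median 2265) in hippocampus and 188 to 252 (median 223) in PFC. The 3 regions were apart in both genotypes, with PFC lowest. Its log2 difference was 3.39 (SE 0.08, adjusted p = 1.04e-18) for hippocampus against PFC and -2.55 (SE 0.08, adjusted p = 5.25e-17) for striatum against hippocampus (limma).

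Gpr22, a receptor of brain and heart, was highest in hippocampus, next in PFC and lowest in striatum. It had striatal values of 504 to 683 in HT and 485 to 862 in WT. In hippocampus it was at 2922, 2515, 2597, 3366 and 2865 in HT and 2451 to 3293 (median 2759) in WT, and in PFC at 1403, 1461, 1376, 1744 and 1555 in HT and 1412 to 1689.8 (median 1549.6) in WT. These ranges did not overlap. Its log2 difference was -1.30 (SE 0.10, adjusted p = 9.07e-10) for striatum against PFC and -2.16 (SE 0.10, adjusted p = 3.04e-13) for striatum against hippocampus in WT (limma).

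Gpr153, a receptor of unknown ligand, set hippocampus apart from both other regions. In HT libraries, Gpr153 was at 778 to 993 (median 938) in striatum, at 192, 254, 144, 187 and 178.8 in hippocampus and at 795, 896, 931, 735 and 795 in PFC. In WT libraries, Gpr153 was at 815 to 993 (median 929) in striatum, 152 to 197 (median 178) in hippocampus and 745 to 875 (median 808) in PFC. Hippocampus was lower in every library, and the other regions overlapped. Its log2 difference was 2.39 (SE 0.07, adjusted p = 2.37e-17) for striatum against hippocampus and -2.20 (SE 0.07, adjusted p = 2.01e-16) for hippocampus against PFC (limma). Gpr162, its closest relative among the members, was highest in PFC, at 2698 to 3204 in striatum, 3588 to 3902 in hippocampus and 4211 to 4966 in PFC in HT and 2528 to 2931 in striatum, 3555 to 3945 in hippocampus and 4406 to 4786 in PFC in WT libraries. Gpr26, which raises cyclic AMP without a ligand, was highest in PFC too. In HT libraries, Gpr26 was at 3878 to 6072 (median 4662) in striatum, at 5227, 5608, 5295, 4722 and 5179.7 in hippocampus and at 8819.5, 9253, 9908, 10534 and 9051 in PFC. In WT libraries, Gpr26 was at 3777 to 5629 (median 4736) in striatum, 5137 to 5688 (median 5462) in hippocampus and 8664 to 9969 (median 9059) in PFC. No PFC library overlapped the other regions. On the log2 scale it differed by -0.95 (SE 0.07, adjusted p = 5.15e-10) for striatum against PFC and -0.76 (SE 0.07, adjusted p = 2.61e-08) for hippocampus against PFC in WT (limma).

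**Figure D3:**
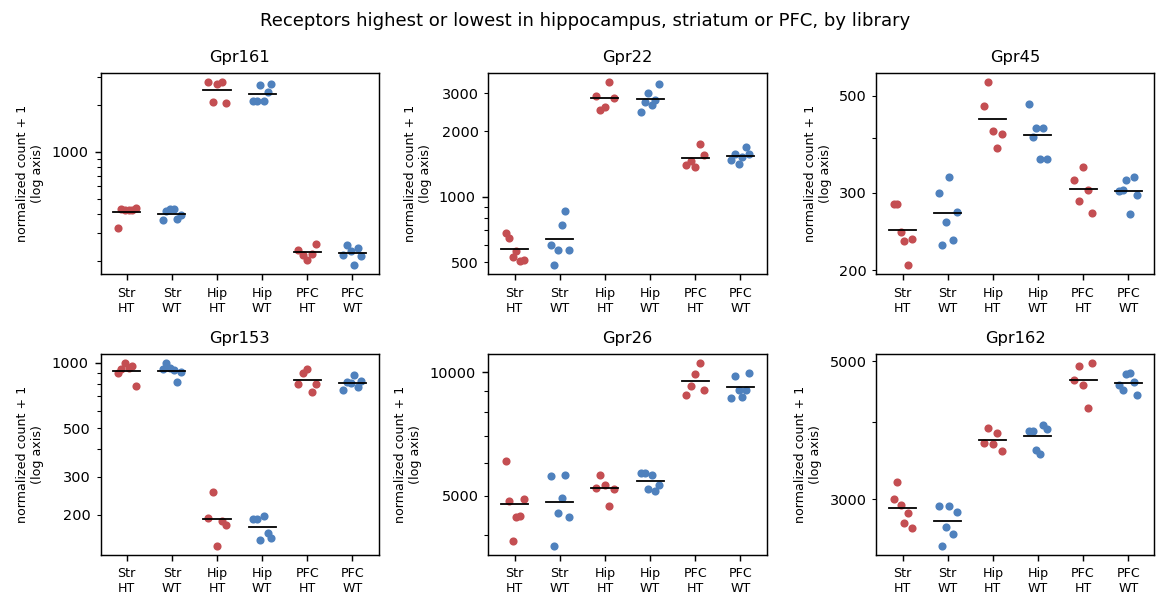
Normalized count + 1 on a log axis for 6 members that were highest or lowest in 1 region, 1 point per library (HT red, WT blue), with a line at the mean of each group of 5 or 6. Gpr161, Gpr22 and Gpr45 peak in hippocampus, Gpr153 is lowest there, and Gpr26 and Gpr162 peak in PFC.

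The families of related receptors differed in how far their members moved together. Gpr27, Gpr85 and Gpr173, a set of receptors whose sequence is nearly the same across vertebrates, differed little over the regions, by at most 0.25 on the log2 scale in WT. Gpr27 ranged over 753 to 1121 in striatum, 1020.1 to 1119 in hippocampus and 834 to 973 in PFC in HT libraries, and over 904 to 1013 in striatum, 990.4 to 1120.2 in hippocampus and 808 to 933 in PFC in WT libraries. Gpr85 ranged over 845 to 931 in striatum, 857 to 1104 in hippocampus and 860.3 to 973 in PFC in HT libraries, and over 766 to 1041 in striatum, 980.3 to 1090.2 in hippocampus and 890.0 to 987 in PFC in WT libraries. Gpr173 ranged over 312 to 402 in striatum, 437 to 457 in hippocampus and 342 to 444 in PFC in HT libraries, and over 309 to 512 in striatum, 383 to 451 in hippocampus and 336 to 436 in PFC in WT libraries. The WT log2 differences of Gpr27 were 0.11 for striatum minus PFC, -0.15 for striatum minus hippocampus and 0.25 for hippocampus minus PFC, and both that involve hippocampus were called (limma adjusted p = 0.0137 and adjusted p = 0.000119). With equal totals Gpr27 was not called between striatum and hippocampus (-0.09, limma adjusted p = 0.114) and was called between striatum and PFC (0.25, adjusted p = 0.000107). Those of Gpr85 were -0.09 for striatum minus PFC, -0.23 for striatum minus hippocampus and 0.14 for hippocampus minus PFC, and those of Gpr173 0.09 for striatum minus PFC, -0.05 for striatum minus hippocampus and 0.14 for hippocampus minus PFC. Of these only Gpr85 between striatum and hippocampus was called (limma adjusted p = 0.00655). With equal totals Gpr85 became called for hippocampus minus PFC (0.23, limma adjusted p = 0.00401). Gpr173 was then called for striatum minus PFC (0.23, adjusted p = 0.0331) and hippocampus minus PFC (0.23, adjusted p = 0.0399).

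Gpr61 and Gpr62 are related to the receptors for amines. Gpr61 ranged over 380.2 to 472 in striatum, 359.7 to 413 in hippocampus and 416 to 455 in PFC in HT libraries, and over 356 to 413 in striatum, 362 to 412 in hippocampus and 404 to 472 in PFC in WT libraries. Gpr62 ranged over 173.2 to 250.3 in striatum, 132 to 196 in hippocampus and 147 to 189 in PFC in HT libraries, and over 178 to 280.2 in striatum, 147 to 209 in hippocampus and 128 to 179.8 in PFC in WT libraries. Gpr62, also a product of oligodendrocytes, was higher in striatum, by 0.57 (SE 0.12, adjusted p = 0.000299) against PFC and 0.37 (SE 0.12, adjusted p = 0.014) against hippocampus in WT (limma). In HT its call against hippocampus was lost without the libraries coded 31 (limma adjusted p = 0.0560) or on leaving out any 1 of 5 libraries (adjusted p up to 0.127). The summed level of 9 oligodendrocyte markers was likewise higher in striatum, at 250242 to 295117 in HT and 223659 to 272981 in WT, against 119366 to 135353 in HT and 89133 to 140384 in WT PFC, and its part in the result was not tested. Gpr37, a receptor of oligodendrocytes and a substrate of parkin, moved the same way. Gpr37 ranged over 2161 to 2569.8 in striatum, 1468 to 1956 in hippocampus and 1008 to 1114 in PFC in HT libraries, and over 1962 to 2496 in striatum, 1633 to 1984 in hippocampus and 768 to 1207 in PFC in WT libraries. Its WT differences were 1.09 (SE 0.09, adjusted p = 9.62e-10) for striatum against PFC and 0.30 (SE 0.09, adjusted p = 0.00899) against hippocampus (limma).

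Gpr45 and Gpr63 are close relatives, and both were highest in hippocampus. Gpr45 ranged over 205 to 282 in striatum, 379 to 535 in hippocampus and 269.6 to 343 in PFC in HT libraries, and over 227 to 325 in striatum, 357 to 476 in hippocampus and 267 to 325 in PFC in WT libraries. Gpr63 ranged over 115 to 279 in striatum, 183 to 311 in hippocampus and 85.3 to 106 in PFC in HT libraries, and over 107 to 160.0 in striatum, 208 to 277 in hippocampus and 49.7 to 130.5 in PFC in WT libraries. For hippocampus against PFC in WT, Gpr45 had a log2 difference of 0.42 (SE 0.09, adjusted p = 0.000685) and Gpr63 of 1.67 (SE 0.20, adjusted p = 3.65e-07) (limma). In HT, the striatum minus hippocampus call of Gpr63 was lost on leaving out any 1 of 5 libraries (limma adjusted p up to 0.0723). Gpr21, a class A receptor, was lowest in hippocampus. Gpr21 ranged over 61.3 to 96.5 in striatum, 28.7 to 41.1 in hippocampus and 53.2 to 199.9 in PFC in HT libraries, and over 64.3 to 107 in striatum, 27.6 to 60.0 in hippocampus and 66.9 to 111 in PFC in WT libraries. Its WT differences were 0.99 (SE 0.18, adjusted p = 0.000101) for striatum against hippocampus and -1.10 (SE 0.18, adjusted p = 2.87e-05) for hippocampus against PFC (limma).

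Gpr158 and Gpr179 are class C receptors that bind RGS7 with the G protein subunit Gnb5, and glypican 4 (Gpc4) is a reported partner of Gpr158 at hippocampal synapses. Gpr158 was abundant throughout. Gpr158 ranged over 4463 to 5991 in striatum, 3609 to 3764 in hippocampus and 4579 to 5471 in PFC in HT libraries, and over 4869 to 6432 in striatum, 3652 to 3795 in hippocampus and 4346 to 5476 in PFC in WT libraries. It was higher in striatum than in hippocampus by 0.61 (SE 0.06, adjusted p = 3.24e-08) and lower in hippocampus than in PFC, at -0.41 (SE 0.06, adjusted p = 1.19e-05) (WT, limma). The partners were followed too. Gpc4 was higher in hippocampus than PFC (1.47 (SE 0.09, adjusted p = 1.82e-11)), Gnb5 was higher in striatum than hippocampus (0.89 (SE 0.05, adjusted p = 1.31e-12)) and Rgs7 was lower in striatum than PFC (-0.76 (SE 0.05, adjusted p = 1.69e-11)), all in WT by limma.

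Several members act inside the cell. Gpr137, Gpr137b and Gpr137c are proteins of the lysosome membrane. Gpr137 ranged over 1244 to 1386 in striatum, 1432 to 1582 in hippocampus and 1526 to 1739 in PFC in HT libraries, and over 1128 to 1343 in striatum, 1555 to 1652 in hippocampus and 1567 to 1826 in PFC in WT libraries. Gpr137b ranged over 261 to 404 in striatum, 316 to 411 in hippocampus and 291 to 321 in PFC in HT libraries, and over 341 to 373 in striatum, 292 to 410.2 in hippocampus and 287 to 345 in PFC in WT libraries. Gpr137c ranged over 1066 to 1201 in striatum, 674 to 785 in hippocampus and 781 to 992 in PFC in HT libraries, and over 1136 to 1367 in striatum, 681 to 806 in hippocampus and 839.6 to 1146 in PFC in WT libraries. Gpr137 was lower in striatum than PFC, at -0.46 (SE 0.05, adjusted p = 3.13e-08), Gpr137c was higher by 0.32 (SE 0.07, adjusted p = 0.000307), and Gpr137b was not called (0.17 (SE 0.08, adjusted p = 0.0704)), in WT by limma. Gpr107 and Gpr108 are proteins of the Golgi. Gpr107 ranged over 1249.8 to 1438 in striatum, 1271 to 1452 in hippocampus and 1191 to 1359 in PFC in HT libraries, and over 1304 to 1606 in striatum, 1282 to 1483 in hippocampus and 1029.8 to 1347 in PFC in WT libraries. Gpr108 ranged over 520.0 to 639.8 in striatum, 461 to 507 in hippocampus and 484 to 535 in PFC in HT libraries, and over 576 to 627 in striatum, 425 to 569 in hippocampus and 450.1 to 574 in PFC in WT libraries. Both were called between striatum and PFC in WT, at 0.23 (SE 0.06, adjusted p = 0.00421) and 0.28 (SE 0.07, adjusted p = 0.00156) (limma). Gpr155, the lysosomal cholesterol sensor, was higher in striatum than PFC by 0.92 (SE 0.08, adjusted p = 7.83e-10) in WT (limma). These genes stand in a list of atypical or intracellular members, which also holds Gpr89, Gpr157 and Gpr180. Of its 9 members, 4 were higher and 1 lower in striatum than PFC in WT, beside 29% and 27.7% of all genes. None of the 9 reached a log2 difference of 1. Gpr157 was at 0.35 (SE 0.17), Gpr180 at -0.10 (SE 0.06) and Gpr89 at 0.13 (SE 0.07), none of them called. Against hippocampus in WT, Gpr89 was higher in striatum at 0.38 (SE 0.07, adjusted p = 0.000132), Gpr157 at 0.47 (SE 0.17, adjusted p = 0.0269) and Gpr180 at 0.15 (SE 0.06, adjusted p = 0.0373) (limma). The call of Gpr157 was lost on leaving out WT hippocampus replicate 4 or 5 or WT striatum replicate 4 (adjusted p up to 0.0741). That of Gpr180 was lost on leaving out WT hippocampus replicate 3, 4 or 6 or WT striatum replicate 2, 4, 5 or 6 (adjusted p up to 0.088) or with the replicate block (adjusted p = 0.059). The list's median was 0.23, beside 0.01 over all genes.

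Of 16 genes in a list of immune cell receptors, 7 were listed in the table and 4 tested between regions. Gpr34, a lysophosphatidylserine receptor of microglia, was the most abundant. Gpr34 ranged over 297 to 359.9 in striatum, 275 to 377 in hippocampus and 371 to 416 in PFC in HT libraries, and over 295 to 396 in striatum, 268 to 339.7 in hippocampus and 322 to 430.1 in PFC in WT libraries. It was lower in hippocampus than PFC, at -0.31 (SE 0.09, adjusted p = 0.00545) (WT, limma), and 9 microglia markers summed to 9974 to 11052 in WT hippocampus and 11644 to 13695 in WT PFC; their part was not tested. Gpr183, the oxysterol receptor, was at 22.0 to 33.9 in striatum, 13.5 to 36.98 in hippocampus and 22.9 to 40.6 in PFC in WT and was called in no pair, nor were Gpr84, a fatty acid receptor of myeloid cells, and Gpr160. Cyp7b1, which makes the oxysterol ligand of Gpr183, was higher in hippocampus than PFC by 1.28 (SE 0.07, adjusted p = 2.32e-12) (WT, limma).

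Among receptors of glia and vessels, Gpr4, a proton sensor of endothelium, was higher in striatum than hippocampus by 0.59 (SE 0.16, adjusted p = 0.00457) and Gpr146 by 0.29 (SE 0.06, adjusted p = 0.000233). Gpr182, which scavenges chemokines on endothelium, was lower, at -0.61 (SE 0.20, adjusted p = 0.0133) (all WT, limma). In HT libraries the Gpr182 difference was -1.36 (SE 0.28, adjusted p = 0.000529). The HT call of Gpr4 for that pair was lost with the replicate block (limma adjusted p = 0.0752) and without the libraries coded 31 (adjusted p = 0.0542). It was also lost on leaving out any 1 of 5 libraries (adjusted p up to 0.119). The 7 endothelial and mural markers summed to 6899.8 to 8042 in HT and 6971 to 8357 in WT striatum, and to 8022 to 9089 in HT and 7908 to 8763 in WT hippocampus. Gpr39, a zinc receptor, stayed between 0 and 29.7 and was called in no pair.

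The remaining members gave smaller contrasts, apart from Gpr151, a receptor of the habenula. Gpr151 ranged over 20.4 to 78.3 in striatum, 5.81 to 28.3 in hippocampus and 4.38 to 13.1 in PFC in HT libraries, and over 17.0 to 55.3 in striatum, 11.6 to 23.6 in hippocampus and 4.18 to 16.8 in PFC in WT libraries. Its WT log2 differences were 1.89 (SE 0.32, adjusted p = 2.57e-05) for striatum against PFC and 0.91 (SE 0.32, adjusted p = 0.0233) against hippocampus (limma), and the second was lost without WT hippocampus replicate 1 or WT striatum replicate 3 (adjusted p up to 0.0656). The 7 markers of thalamus, habenula and septum had a mean log2 level of 8.77 in WT striatum, 6.72 in WT hippocampus and 6.62 in WT PFC. These markers did not move together. Six3 had a mean of 1401 in WT striatum, 19.7 in WT hippocampus and 18.0 in WT PFC. Trpc4 was highest in WT hippocampus (mean 1330) and Nwd2 in WT PFC (mean 1576), and the other listed genes were on average highest in WT striatum. Of the 7, 5 were called higher and 1 lower in striatum than PFC, and their sums were 3602 to 4866 in striatum and 2037 to 3059.6 in PFC. Their part in the Gpr151 values was not tested. Gpr75 and Gpr176, a receptor of the circadian clock, were lowest in PFC, with striatum minus PFC at 0.53 (SE 0.08) and 0.26 (SE 0.08) in WT. The WT hippocampus minus PFC call of Gpr176 depended on single libraries. It was lost without WT PFC replicate 2 or 4 or WT hippocampus replicate 2 (limma adjusted p up to 0.0643). For Gpr176 in HT, the striatum minus PFC call was lost without any of 4 libraries (limma adjusted p up to 0.0774). Gpr135 was lower in striatum than PFC, at -0.25 (SE 0.07). Gpr1, a chemerin receptor, was lower in hippocampus than PFC, at -1.06 (SE 0.31). These 4 passed by limma, Gpr135 not with equal totals (-0.11, adjusted p = 0.157). Gpr19 and Gpr25 were called in no pair of regions in either genotype.

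The genotype comparison asked whether any of these receptors differed between HT and WT mice within a region. None was called in any region, and neither was any other gene. In striatum 0 of 54 members and 0 of 17054 genes passed (0%), in hippocampus 0 of 51 and 0 of 16820 (0%) and in PFC 0 of 50 and 0 of 16667 (0%), by limma. An unadjusted p under 0.05 was found for 4 members in striatum (5.89% of all genes), 5 in hippocampus (6.81% of all genes) and 1 in PFC (5% of all genes). In striatum 38 of 54 members lay below 0, with a median of -0.06 beside -0.0038 over all genes. The medians were -0.01 in hippocampus, beside -0.0014 over all genes, and 0.02 in PFC, beside -0.0031. The 95% interval lay within 1 of 0 on the log2 scale for 48 of 54 members in striatum, 45 of 51 in hippocampus and 45 of 50 in PFC.

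**Figure D4:**
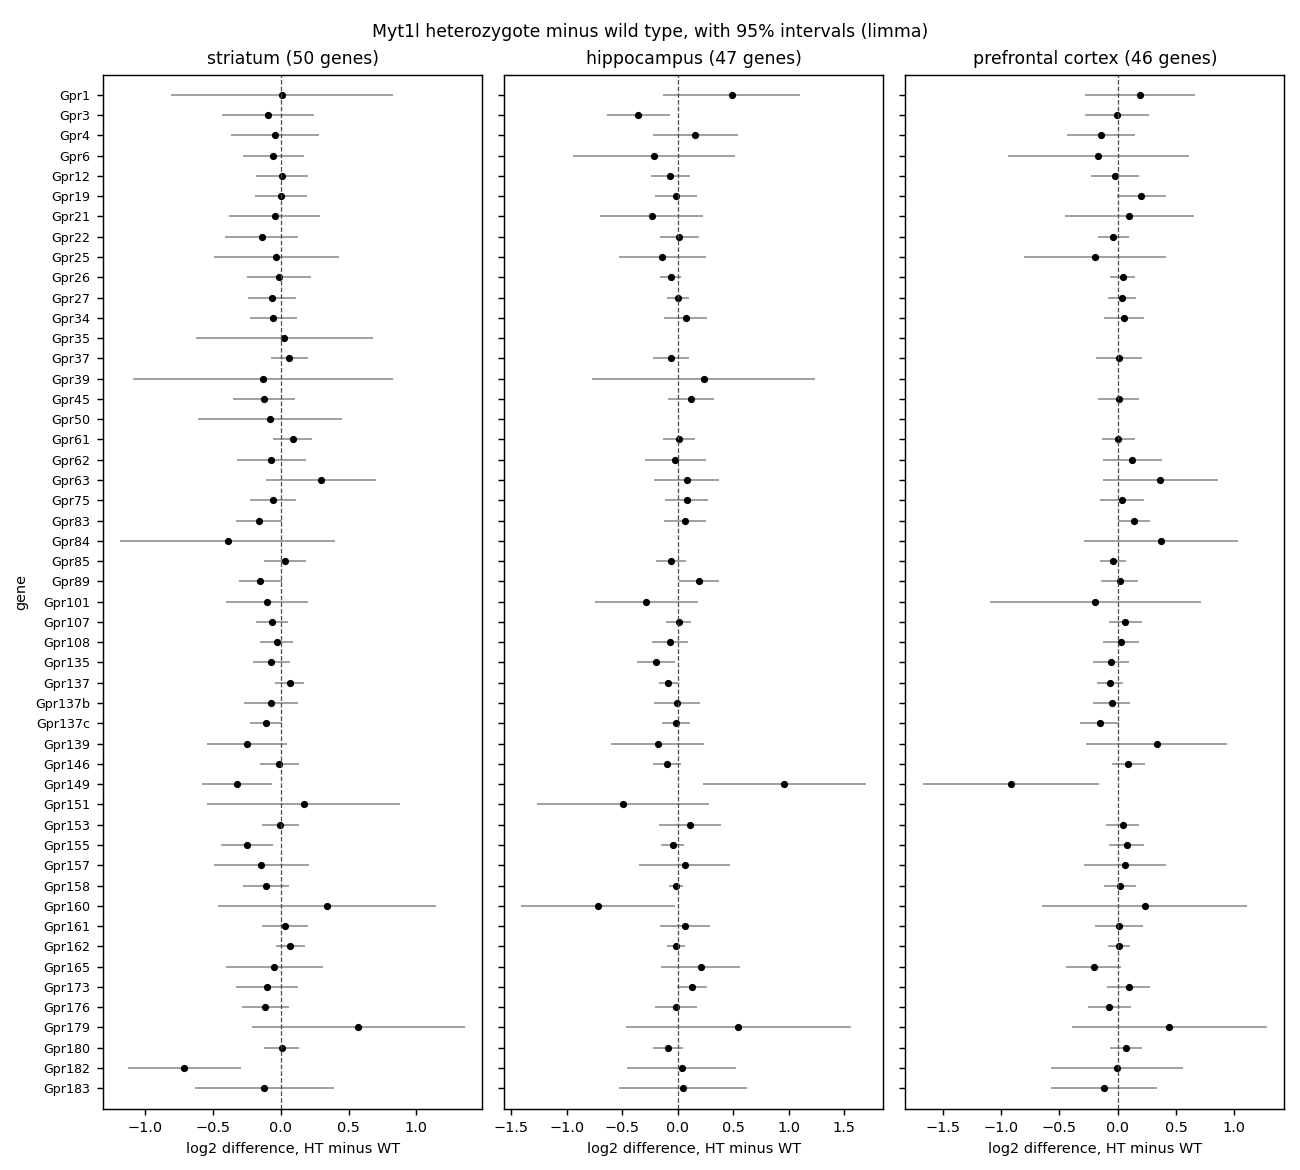
Log2 difference of HT minus WT for 50 members tested in striatum, 47 in hippocampus and 46 in PFC, with its 95% interval from limma; the dashed line marks 0. No interval stands for a called gene, and the widest belong to members of low level.

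Members with the smallest p in each region are given as values, and none of them passed. In striatum the first was Gpr182, the endothelial chemokine scavenger. Gpr182 was at 18.8 to 34.3 (median 29.3) in HT and at 34.7 to 64.7 (median 43.5) in WT striatum. The HT and WT libraries did not overlap, which held for 1 of 54 members and for 0.399% of all genes. No member was so separated in hippocampus (0.678% of all genes) or PFC (0.462%). Its log2 difference was -0.71 (SE 0.20, unadjusted p = 0.00249, limma adjusted p = 0.715). Endothelial and mural markers lay below 0 in 7 of 7 cases with none called, at a median of -0.03, and none of the 7 was at 0 in any library. Microglia markers (9 of 9) and meningeal markers (5 of 5) also lay below 0 without a call. The part of those cells in the Gpr182 value was not tested. Among libraries coded 35 the Gpr182 difference was -0.45, and without those coded 31 it was -0.51. Gpr155 was at 2079.7 to 2833 (median 2577) in HT and at 2466 to 3334 (median 3070.4) in WT striatum, overlapping, a difference of -0.25 (SE 0.09, unadjusted p = 0.0139, limma adjusted p = 0.77). Gpr149 was at 185 to 291 (median 234) in HT and at 242 to 361 (median 285) in WT striatum, overlapping too, a difference of -0.32 (SE 0.12, unadjusted p = 0.0192, limma adjusted p = 0.799). Striatal projection neuron markers were below 0 in 7 of 8 cases with none called (median -0.15), and their sum was 54422 to 81347 in HT and 63825 to 81029.5 in WT, and their part in these values was not tested. Gpr137c differed by -0.11 (SE 0.05, unadjusted p = 0.0622, limma adjusted p = 0.857).

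In hippocampus Gpr149 had the smallest p. Gpr149 was at 61.4, 30.9, 13.6, 40.7 and 45.2 in HT and at 12.1 to 31.7 (median 16.7) in WT hippocampus. Of the HT libraries 3 lay above every WT library and 2 inside the WT range. The log2 difference of Gpr149 was 0.96 (SE 0.35, unadjusted p = 0.0138, limma adjusted p = 0.719). Without HT replicate 1, which has the doubtful code, it was 0.76. The 7 markers of thalamus, habenula and septum were highest in HT replicates 4 and 5, with mean log2 levels of 7.29 and 7.63, and the other HT libraries had 6.43 to 6.81 and WT 6.52 to 7.04. They summed to 2414 to 3048 in HT and 2679 to 2996 in WT hippocampus, 4 of 6 tested lay above 0, and Gbx2 was at 0 in 8 of the 34 libraries. Their part in the Gpr149 value was not tested. Gpr3 was at 123, 135, 140.3, 123 and 91.9 in HT and at 128 to 198 (median 155) in WT hippocampus. The ranges overlapped, with a difference of -0.35 (SE 0.13, unadjusted p = 0.019, limma adjusted p = 0.719). Gpr135 was at 361, 339, 369, 350.3 and 297 in HT and at 348 to 438 (median 392) in WT hippocampus. Those ranges overlapped as well, with a difference of -0.19 (SE 0.08, unadjusted p = 0.0273, limma adjusted p = 0.72). Gpr89, the Golgi channel, differed by 0.19 (SE 0.09, unadjusted p = 0.0396, limma adjusted p = 0.727) and Gpr160 by -0.71 (SE 0.33, unadjusted p = 0.0442, limma adjusted p = 0.728).

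In PFC Gpr149 again had the smallest p, with the opposite sign. Gpr149 was at 16.2, 12.0, 9.02, 9.99 and 15.6 in HT and at 14.8 to 71.1 (median 20.6) in WT PFC. The WT group held 1 library far above the rest, and the genotypes overlapped. The log2 difference was -0.92 (SE 0.36, unadjusted p = 0.021, limma adjusted p = 0.977), and without that library, WT replicate 3, it was -0.61. The thalamus, habenula and septum markers were highest in the same library, with a mean log2 level of 7.15, and the other 10 PFC libraries had 6.02 to 6.68, and 1 of 6 tested lay above 0. Their part was not tested. Gpr83, the PEN receptor, differed by 0.14 (SE 0.06, unadjusted p = 0.0526, limma adjusted p = 0.977), and Pcsk1n, the gene that encodes PEN, by -0.16 (SE 0.05). Gpr19 differed by 0.20 (SE 0.10, unadjusted p = 0.0568, limma adjusted p = 0.977), Gpr137c by -0.15 (SE 0.08, unadjusted p = 0.0698, limma adjusted p = 0.977) and Gpr165 by -0.21 (SE 0.11, unadjusted p = 0.0846, limma adjusted p = 0.977).

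**Figure D5:**
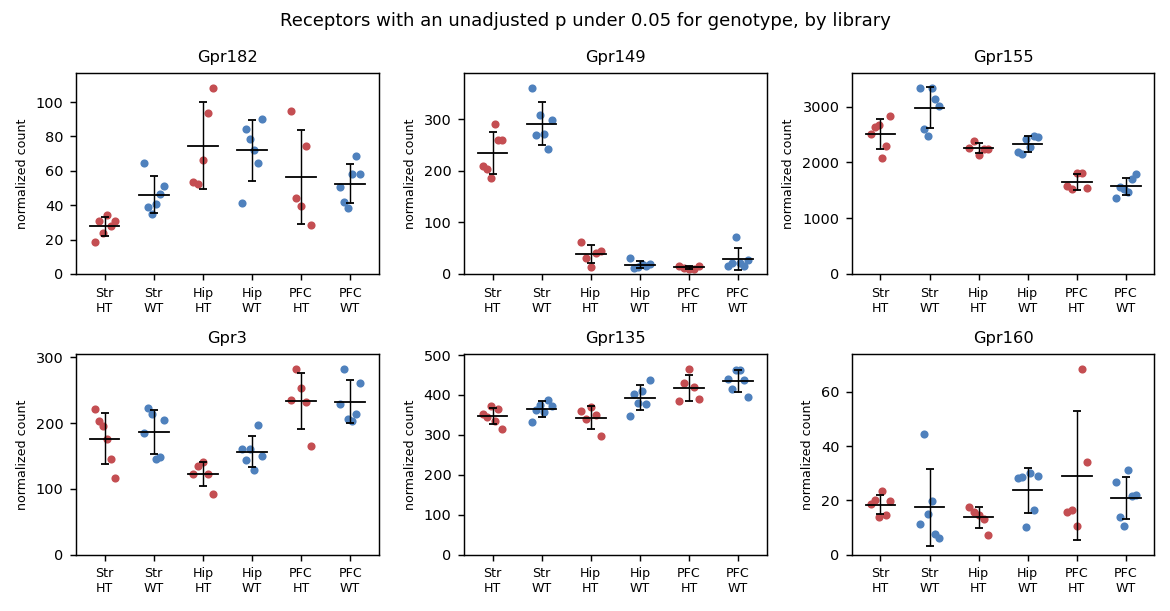
Normalized counts by library for 6 of the members with an unadjusted p under 0.05 for genotype in some region (HT red, WT blue; line, mean; bars, SD; n = 5 or 6 libraries). Gpr182 in striatum is the only panel and region in which all HT points lie below all WT points.

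Whether the genotype effect differed between regions was tested in 1 model of all 34 libraries. No member and no other gene was called in the 3 comparisons (0% of 17051 genes in each). An unadjusted p under 0.05 was found for 4 of 53 members for striatum minus PFC (3.59% of all genes), 5 for striatum minus hippocampus (3.69%) and 2 for hippocampus minus PFC (3.76%). Gpr149 had the smallest unadjusted p of all genes for hippocampus minus PFC, at 1.88 (SE 0.43, unadjusted p = 0.000114, limma adjusted p = 1). For striatum minus hippocampus it was at -1.28 (SE 0.42, unadjusted p = 0.00442, limma adjusted p = 1). Leaving out single libraries gave 1.57 to 2.20 for the first of these, with an adjusted p of 0.0550 at the lowest. Gpr155 was at -0.33 (SE 0.11, unadjusted p = 0.00495, limma adjusted p = 0.999) and Gpr83 at -0.29 (SE 0.11, unadjusted p = 0.0114, limma adjusted p = 0.999) for striatum minus PFC. Gpr89 was at -0.34 (SE 0.12, unadjusted p = 0.00616, limma adjusted p = 1) for striatum minus hippocampus. Gpr137 was at 0.13 (SE 0.06) and 0.15 (SE 0.06) for striatum minus PFC and striatum minus hippocampus, and for hippocampus minus PFC Gpr146 was at -0.19 (SE 0.09) and Gpr180 at -0.15 (SE 0.08).

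Averaged over the 3 regions, 16 of 17051 genes passed (0.0938%) and 0 of 53 members, of which 3 had an unadjusted p under 0.05 (9.37% of all genes). Of those 3, Gpr135 was at -0.11 (SE 0.04, unadjusted p = 0.0114, limma adjusted p = 0.36) and Gpr137c at -0.09 (SE 0.04, unadjusted p = 0.0258, limma adjusted p = 0.431).

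The rest of the pathway was followed through 53 genes for G protein subunits, receptor kinases, arrestins and RGS proteins. None was called for genotype in any region or on average, and Gnai1, an alpha subunit that lowers cyclic AMP, had the smallest adjusted p on average (-0.13 (SE 0.03, adjusted p = 0.069), limma). Between regions in WT, 20 of 52 tested were higher and 22 lower in striatum than PFC (29% and 27.7% of all genes). Against hippocampus 23 were higher and 15 lower in striatum (23.9% and 23.6% of all genes), and 9 were higher and 25 lower in hippocampus than PFC (23.6% and 22.7% of all genes). The striatal G protein that couples dopamine receptors to cyclic AMP led the first pair with its gamma subunit Gng7 (2.88 (SE 0.07, adjusted p = 1.95e-17)) and alpha subunit Gnal (1.42 (SE 0.06, adjusted p = 3.45e-15)). Rgs6 was lower in striatum than PFC (-1.42 (SE 0.06, adjusted p = 1.74e-14)) and Rgs2 higher in striatum than hippocampus (1.73 (SE 0.07, adjusted p = 3.32e-15)), all by limma. Against hippocampus Gnal was at 1.98 (SE 0.06) and Gng7 at 1.92 (SE 0.07).

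The library kit is not stated to mark strand, and 21 of the 57 members share exon bases with another gene. For 5 the shared part is at least 20% of their own exon bases, all with a gene on the opposite strand: Gpr25 with Gm26781 (41.6%), Gpr39 with Lypd1 (39.9%), Gpr84 with Gm49482 (39.5%), Gpr89 with Pdzk1 (24.8%) and Gpr65 with Gm47566 (24.7%). The values of these 5 members are uncertain. Gpr6, Gpr83, Gpr101, Gpr149, Gpr161 and Gpr165 share no exon bases.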

How the data were processed

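RNA sequencing of 34 libraries gave a deposited table of signal per gene and library, which the authors name DESeq counts and which is called a normalized count here. The submitters' processing notes list the build GRCm38 and, with no roles, DESeq2 1.26.0, Salmon 1.1.0 and R 3.6.2; the kit was TruSeq v2 per the labels. Whole reads could not be recovered from the values, the depth is unknown and no count model was used.

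Values became log2(value + 1), and genes with a mean of at least 10 were tested with limma 3.58.1 (R 4.3.3; trend, robust; 2-sided; Benjamini-Hochberg at 0.05 over all genes). Models held 1 region for genotype, 1 genotype for regions, or all 34 libraries for differences and the average. Only the average took the column code as a random block (correlation 0.0429). The 34 libraries carry 12 codes, and every code recurs over regions, so libraries of different regions may share an animal. Region tests and differences took libraries as independent. With the code as a block, 23 members were higher and 9 lower in WT striatum than PFC. No difference of effects called a member with that block. Tests were checked on simulated data.  Members and lists were chosen with earlier results of these data known. Gpr1, Gpr25 and Gpr165 stand in no family list. Counts cover every member, but some members are not reported here. Members given with libraries or ranges were those past a log2 difference of 1 in at least 2 WT region pairs, the smallest p for genotype (5 per region, 3 for each difference and the average), the 5 highest per kilobase in each region, and the families of close relatives. Of 18548 identifiers, 18533 matched GENCODE M21. Alternatives varied the added constant, filter, scaling, weights, blocks and libraries. Other tables and figures used python 3.11.15, numpy 2.4.6, pandas 2.3.3 and matplotlib 3.10.9.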

Additional observations from a re-analysis of the deposited data

Results flagged for a closer look

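In 222 groups of 5 or 6 libraries examined for 37 named members, 12 held a library far from the rest, and chance alone gives about 1 in 20. Gpr6 was at 79.1 in WT PFC replicate 5, where the others of its group had 20.04 to 40.0. The 8 striatal projection neuron markers had a mean log2 of 9.59 in that library, against 8.15 to 9.04 in the other WT PFC libraries, and their part was not tested. Gpr149 was at 71.1 in WT PFC replicate 3, where the others of its group had 14.8 to 26.4. Gpr149 was at 31.7 in WT hippocampus replicate 1, where the others of its group had 12.1 to 18.4. Gpr165 was at 562 in HT striatum replicate 1, where the others of its group had 896 to 1011. Gpr161 was at 326 in the same library, where the others of its group had 424 to 433. That library carries the code 31-67M. Its 7 cortical projection neuron markers had a mean log2 of 9.64, against 7.24 to 9.26 in the other HT striatum libraries. Its 6 choroid plexus and ependymal markers had 5.97, against 9.42 to 10.69 in those libraries. The part of the code and of these tissues was not tested.

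The other 7 were single values. Gpr50 was at 27.6 in WT hippocampus replicate 4, where the others of its group had 3.01 to 5.49. Gpr83 was at 409.7 in WT hippocampus replicate 2, where the others of its group had 443 to 453. Gpr108 was at 461 in HT hippocampus replicate 3, where the others of its group had 499 to 507. Gpr160 was at 44.5 in WT striatum replicate 2, where the others of its group had 6.27 to 19.8. Gpr62 was at 189 in HT PFC replicate 1, where the others of its group had 147 to 158. Gpr19 was at 222 in HT PFC replicate 3, where the others of its group had 259 to 271. Gpr173 was at 436 in WT PFC replicate 2, where the others of its group had 336 to 372.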

How the results depend on the processing

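Counts of called receptors changed little: for HT against WT the count of members stayed at 0 in every alternative within a region and for every difference of effects, and for the region pairs it stayed within 1.5 times. The average over regions was the exception, with 1 member called with the replicate number as a block and 0 to 1 on leaving out single libraries. Counts over all genes moved more. In striatum 0 became 1 without the libraries whose code begins with 31 and 2 within those beginning with 35, and 0 to 1 on leaving out single libraries. In hippocampus 0 became 1 with equal totals, 3 with array weights, 6 without code 31, 2 within code 35 and 0 to 4 on leaving out single libraries. In PFC 0 became 1 within code 35 and 0 to 2 on leaving out single libraries. For the average, 16 became 38 with array weights, 6 without trend and robust options, 40 without code 31, 29 without the code block, 2 within code 35 and 5 to 29 on leaving out single libraries. Same-numbered deviations correlated at -0.098 to 0.296, and in no pair of groups did every library correlate best with its own number. In WT hippocampus and WT striatum, however, the same number carries the same code, and the correlations there were 0.0353 to 0.101. Low correlations therefore cannot decide whether libraries share an animal. The replicate block gave 28 genes for the average.

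Single values that changed sign, none of them called, were with equal totals Gpr61 0.00186 (striatum minus PFC in WT), Gpr85 0.0505 (striatum minus PFC in WT), Gpr21 0.0237 (striatum minus PFC in WT), Gpr173 0.000404 (striatum minus hippocampus in WT), Gpr179 0.0191 (hippocampus minus PFC in WT), Gpr61 0.0906 (striatum minus PFC in HT), Gpr85 0.13 (striatum minus PFC in HT), Gpr173 0.0444 (striatum minus PFC in HT), Gpr107 0.027 (striatum minus hippocampus in HT), Gpr137b 0.00794 (striatum minus hippocampus in HT) and Gpr108 0.0689 (hippocampus minus PFC in HT); with array weights Gpr27 -0.0163 (striatum minus PFC in HT) and Gpr137b 0.00454 (striatum minus hippocampus in HT); with the replicate block Gpr27 -0.0481 (striatum minus PFC in HT); without code 31 Gpr179 0.13 (hippocampus minus PFC in WT), Gpr27 -0.0235 (striatum minus PFC in HT), Gpr137b 0.0219 (striatum minus hippocampus in HT) and Gpr12 0.00794 (striatum minus hippocampus in HT); and within code 35 Myt1l -0.0117 (striatum) (HT minus WT). On leaving out single libraries these spanned 0: Myt1l -0.00543 to 0.0983 (PFC), Gpr137b -0.0315 to 0.0661 (striatum minus hippocampus in WT), Gpr173 -0.13 to 0.0156 (striatum minus hippocampus in WT), Gpr179 -0.25 to 0.19 (hippocampus minus PFC in WT), Gpr85 -0.0375 to 0.00704 (striatum minus PFC in HT), Gpr21 -0.46 to 0.00983 (striatum minus PFC in HT), Gpr27 -0.0481 to 0.0668 (striatum minus PFC in HT), Gpr137b -0.0978 to 0.0284 (striatum minus hippocampus in HT), Gpr179 -0.19 to 0.40 (hippocampus minus PFC in HT) and Gpr62 -0.00023 to 0.14 (hippocampus minus PFC in HT). The cause of these changes was not tested. Of the single-gene values under the alternatives, 5575 kept direction and call, 90 lost a call and 50 gained one. Reads per library are not given, and precision is that of 5 or 6 libraries per group.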
